A study of Gallus gallus with 12 samples.

Results

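The brightest probes of the Pat library were described in bone marrow of broiler and layer hens. The Pat probes are those whose identifier on the array starts with Pat, a prefix that is not explained in the labels. Of the 1983 Pat probes on the array, 716 (36.1%) had a value, in every case in all 12 samples. The 300 members were the Pat probes with the highest mean of the deposited values over these 12 samples, and the other 416 filled Pat probes were left outside. The array held 15769 probes in all, of which 3754 had values.

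The marrow came from the whole length of the right tibia of hens aged 15 weeks. The 6 broiler samples were of a commercial Cobb-Cobb line, and the 6 layer samples were of a pedigree Hy-Line White Leghorn line. The marrow was left crude and was not separated into cell types, so a change in the share of a cell type and a change in RNA per cell cannot be told apart. Feed was the same kind for both breeds, a starter until 6 weeks of age, then a grower until 8 weeks, then a developer. Layers fed ad libitum throughout, whereas broilers were restricted daily from 6 weeks of age, and the effects of feeding and breed cannot be told apart. Total RNA was labelled as cDNA with Alexa Fluor 555 or 647, and each of 6 slides carried a broiler sample and a layer sample in opposite dyes. Broiler RNA carried the 647 dye on slides 1, 2 and 5, and the 555 dye on slides 3, 4 and 6. The titles do not say whether a bird was used on more than 1 slide, so p-values below measure the spread between slides, which may be partly technical.

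Tibial marrow of the growing bird produces red cells, granulocytes and thrombocytes, and it also holds bone-forming cells, bone-resorbing cells and fat cells. Layers and broilers are stocks bred for eggs and for meat. A spotted array measures each probe by the dye bound at its spot, and that brightness depends on the probe's own length and sequence as well as on the abundance of the transcript. The files do not pair the Pat identifiers with genes, and 0 identifiers were found in the RefSeq genes of GRCg7b, a chicken assembly. The probes are therefore named by their identifiers, and neither marrow markers nor gene functions are given for them.

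All levels below are log2 intensities relative to a centre near the median of the channel. The deposited values were natural logs and were divided by 0.6931. Because the level chose the members, it is described here without a test, and the order of probes by level does not rank their transcripts. The member means ran from 0.33 to 4.57, with a median of 0.73, and the quartiles were 0.49 and 1.24. On the linear scale the brightest member averaged 23.8 times the channel centre, the median member 1.66 times and the dimmest 1.25 times. Means above 1 were held by 105 members, means above 2 by 25, and means above 3 by 9. The brightest member stood at place 50 among the 3720 chicken probes tested, so 49 probes outside the Pat library were brighter. In all, 971 tested probes had a mean above that of the dimmest member.

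The limit of the set ran through closely spaced values. Just inside it were Pat_7H7 with a mean of 0.3294, Pat_1A9 with 0.3276 and Pat_1H5 with 0.3264. Just outside were Pat_3E9 with 0.3248, Pat-22_g1 with 0.3241 and Pat_1E6 with 0.3221. A mean over slides 1 to 5 alone left 283 of the 300 members in the set, and a median over the 12 samples left 282.

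Probes named after plant genes served as a low level to read the members against. The highest mean over the 12 samples among 30 such probes was 0.11, and 279 members exceeded it in each of the 10 samples of slides 1 to 5. The rule largely brings this about, since the dimmest member had a mean of 0.33, so the count is a description. By their means, 1460 of the 3720 tested probes exceeded this level. It is a mean of 12 samples that is set against single values here. Only 115 members exceeded it in all 12 samples, since slide 6 placed many members far lower.

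Pat_6H4 was the brightest member. It had levels from 3.81 to 5.16 in broilers, with a median of 4.49, against 4.14 to 5.05 in layers, with a median of 4.56. The ranges of the breeds overlapped almost wholly, and Pat_6H4 averaged 4.52 ± 0.46 in broilers and 4.63 ± 0.34 in layers (SD, n = 6 each).

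Pat-19_f8 followed. Its levels ran from 3.40 to 4.99 in broilers, with a median of 4.33, against 3.83 to 5.39 in layers, with a median of 4.10. Its high values went with the dye: on each of the 6 slides the channel with the 647 dye was the brighter.

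Pat_6H3 ran from 2.96 to 4.85 in broilers, with a median of 4.45, against 3.11 to 4.74 in layers, with a median of 4.48. The lowest value of each breed was that of slide 6. Pat_2B7 behaved likewise, with 2.03 to 4.84 in broilers and a median of 3.92, against 1.65 to 4.14 in layers and a median of 3.76, the lowest value of each breed again being on slide 6. Pat-19_e6 ran from 3.24 to 4.25 in broilers, with a median of 3.75, against 2.82 to 3.89 in layers, with a median of 3.42. It was higher in broilers on 4 slides and lower on 2, and the breeds overlapped.

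These 5 probes were among the 10 brightest members in each of the 10 samples of slides 1 to 5. All but Pat_2B7 were also among the 10 brightest in both samples of slide 6. They were named for their mean over these samples, so a high place in each is in part by construction. Their order changed between samples, and in the slide 5 broiler Pat_3H9 was the brightest member, at 5.08.

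Over the 10 samples of slides 1 to 5 the median SD of a member was 0.260, and single members ranged from 0.0751 to 1.83. Over all 12 samples the median SD was 0.435. A total of 80 members had an SD under 0.2 over the 10 samples and 25 had one above 0.5. The slide mean had a median SD of 0.243 over slides 1 to 5, against 0.152 for the broiler minus layer difference, and it was the more variable of the pair for 231 of the 300 members. The same held for 2762 of the 3720 tested probes and for 343 of the 416 other filled Pat probes. It held for 449 of the 672 other tested probes at least as bright as the dimmest member. Among the 300 brightest DT40 library probes it held for 162. This was thus common on the array, with a lower share in these 2 bright groups. A mean of 2 channels and their difference are on unlike scales. These SDs therefore do not measure how far slides outweighed the variation within them. Other tested probes at least as bright as the dimmest member had a median SD of 0.282 (n = 672 probes). The 300 brightest DT40 library probes had a median SD of 0.330, and the 416 Pat probes below the limit had 0.0801. A larger spread thus went with brightness across the array, and these SDs are descriptions without a test.

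The steadiest members were dim. Pat_13C1 had the lowest SD over slides 1 to 5, 0.0751, with levels from 0.51 to 0.74 in broilers and from 0.48 to 0.63 in layers on these slides. Pat_1A9 followed with an SD of 0.0815, Pat_10F8 with 0.0857 and Pat_10H11 with 0.0900. None of these stayed steady on slide 6. There Pat_13C1 had -0.54 in the broiler and -0.49 in the layer, whereas Pat_1A9 had 0.85 and 0.79, above all of its other values.

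The 3 most variable members were bright on a single slide, in both of its samples. Pat_3H9 had the highest SD, 1.83. On slide 5 it had 5.08 in the broiler and 4.31 in the layer. On slides 1 to 4 it lay between 0.14 and 0.46 in broilers and between 0.19 and 0.65 in layers, and on slide 6 at -0.42 and -0.38. Pat-17_c1 had 2.34 in the broiler and 3.58 in the layer on slide 5, and on slides 1 to 4 between -0.11 and 0.04 in broilers and between -0.04 and 0.10 in layers. Pat_12E3 had 3.0 in the broiler and 4.04 in the layer on slide 5, and on slides 1 to 4 between 0.55 and 0.77 in broilers and between 0.46 and 0.72 in layers. All 3 were thus high on slide 5 in the broiler and the layer alike. Pat-17_c1 lay below the limit of the set in every other sample.

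Slide-bound brightness was counted over slides 1 to 5 by a rule set after the values were seen, asking for a slide mean at least 1 log2 unit above that of each other slide. Slide 5 had 5 such members, namely Pat_3H9, Pat-17_c1, Pat_12E3, Pat_12A9 and Pat_12G1. Slide 1 had 2, which were Pat_7H7 and Pat_11H4. Slide 2 had Pat-21_h5 and Pat-21_h1, whose identifiers share plate 21 and row h. Slides 3 and 4 had 0, and 0 members lay 1 log2 unit below the others on any of slides 1 to 5. Choosing members by their mean admits probes that are bright on a single slide. It thus favours high over low slides in this count, which was not made over the other tested probes. The widest gap was 4.16, for Pat_3H9. Pat_7H7, a member just inside the limit, had 1.74 in the broiler and 2.76 in the layer on slide 1, and on slides 2 to 5 between 0.06 and 0.27 in broilers and between -0.03 and 0.22 in layers. Pat-21_h1 had 2.24 in the broiler and 2.96 in the layer on slide 2, and at most 1.59 in a broiler and 1.52 in a layer elsewhere. With a gap of at least 0.5, slide 5 had 16 members above and 2 below the other slides, and slide 1 had 3 above and 9 below.

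Members that moved together over the samples were named by the 3 highest of all pairs, and pairs beyond these were not counted. Among all pairs of members the highest Pearson correlations over the 10 samples of slides 1 to 5 were 0.996 for Pat_14f9 with Pat_5F5, 0.995 for Pat_12E3 with Pat-17_c1 and 0.994 for Pat_14f1 with Pat-22_e1. These are descriptions over 10 samples that share slides in pairs. Over all 12 samples the first pair had 0.314, while the others had 0.979 and 0.992. The correlation of Pat_12E3 with Pat-17_c1 rests on slide 5. Pat_14f1 lay above 1 on slides 3 and 5 only, with 1.89 and 2.06 in broilers and 1.52 and 2.04 in layers. Pat-22_e1 was above 1 on the same slides, with 1.47 and 1.80 in broilers and 1.24 and 1.61 in layers.

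Slide 6 stood apart. The members had a median level of 0.17 in its broiler sample and 0.0041 in its layer sample. On slides 1 to 5 the sample medians were 0.70 to 1.12 in broilers and 0.72 to 1.13 in layers. The Spearman correlation of a sample with the mean of the other slides among 1 to 5 was 0.615 for the broiler and 0.541 for the layer of slide 6, against 0.739 to 0.888 in the 10 other samples. The members were chosen mostly by slides 1 to 5, which raises the levels on those slides in part by construction. A gap in rank agreement was also present over all filled Pat probes, which include those outside the set. There the correlation by identifier row was 0.017 (row G) to 0.302 (row E) on slide 6, against 0.828 to 0.972 on slides 1 to 5. Both slide 6 values of 135 members (45%) lay at or below the plant-named level. Slides 1 to 5 had 5, 4, 2, 3 and 0 such members, in part because the members were chosen mostly by those slides. By slide mean, 32.4% to 62.8% of the members in an identifier row were this low on slide 6. Among all filled Pat probes these shares by row were 51.1% to 68.4%. In all, 283 members were lower on slide 6 than on slides 1 to 5 and 17 were higher, with a median gap of -0.85. These counts are not given for other tested probes, so they are not read as a trait of the members. With slide 6 included, the median SD of other tested probes at least as bright rose from 0.282 to 0.474. Over all tested probes it rose from 0.082 to 0.189.

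The gap to slide 6 was uneven among members of similar level. Of 30 members with a mean above 2 on slides 1 to 5, 23 stayed above 1 on slide 6. A single one of them, Pat-17_g9, lay below the plant-named level there. Pat-17_g9 had 2.87 to 4.22 in the broilers and 3.26 to 4.09 in the layers of slides 1 to 5, but -1.07 in the broiler and -1.06 in the layer of slide 6. Some Pat probes outside the set went the opposite way, and 74 of the 416 reached the level of the dimmest member on slide 6. Pat-19_b9, for instance, had -0.16 to -0.03 in broilers and -0.21 to -0.09 in layers on slides 1 to 5, and 1.62 in the broiler and 1.51 in the layer of slide 6.

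The rank agreement of slide 6 was read by the plate and the column number in the probe identifiers, which the rule did not use. By plate the members' correlation on slide 6 ran from -0.18 on plate 5 (n = 10) to 0.98 on plate 19 (n = 8), over 6 to 26 members a plate. Slide 1 ran from -0.09 on plate 11 to 1 on plate 15 (n = 6 members each). On the other plates slide 1 ran from 0.57 (plate 7, n = 19) to 0.96 (plate 20, n = 7). Slide 6 had low values on larger plates too, with 0.27 on plate 4 (n = 16) and 0.13 on plate 17 (n = 10). Single plates were also low on slide 2 (0.29, plate 21, n = 8) and slide 5 (0.30, plate 18, n = 11). In columns 1, 5 and 9 the members' correlation with slides 1 to 5 was 0.424, 0.406 and 0.172, and in the other columns it ran from 0.476 to 0.866. These 3 columns were picked out after the values were seen. As a set, their 110 members had 0.324 on slide 6, against 0.675 to 0.865 on slides 1 to 5. The other 190 members had 0.725 on slide 6, against 0.807 to 0.921 on slides 1 to 5. Over all filled Pat probes, slide 6 kept correlations of 0.642 in column 4 and 0.644 in column 8, and -0.008 to 0.235 in the other columns. There columns 1, 5 and 9 had 0.001, -0.004 and 0.044, while column 2 had -0.008 and column 10 had 0.098. Beyond the members, columns 1, 5 and 9 were thus not set apart from columns 2 and 10 on slide 6. On slides 1 to 5 all filled Pat probes of columns 1, 5 and 9 had 0.849 to 0.954. Those of the other columns had 0.882 to 0.951. The sources used here do not give the place of each identifier on the slide.

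The members were spread over the library unevenly. Identifiers written like Pat_6H4 (plates 1 to 14, without 9) gave 228 members of 1248 probes (18.3%), and those written like Pat-19_f8 (plates 15 to 22) gave 72 of 735 (9.8%). Plate 12 had the most members, 26, and plates 11 and 15 had the fewest, 6 each. Row G held 20 members of 248 probes (8.1%), against 34 to 46 (13.7% to 18.5%) in the other rows. Column 9 held 46 of 160 (28.8%), column 1 held 36 of 168 (21.4%) and column 11 held 12 of 160 (7.5%). The share of probes with any value was 55% in column 9, 44% in column 1 and 26.2% in row G, and 39.9% and 29.7% for the identifier styles. Of the filled probes alone, columns 8 and 4 gave the highest shares of members, 63% and 59%.

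The breeds were compared to ask which of these probes differed between broiler and layer marrow. Changes were small, and 0 members passed an adjusted p under 0.05 in limma with the slide as a block (lowest adjusted p 0.19), as for all tested probes (0.0%). With slides weighted by their agreement 1 member passed, Pat_12D6, beside 0.296% of all tested probes. The change in log2, broiler minus layer, had a median of 0.04 over the members and ran from -0.69 to 0.75, with quartiles of -0.015 and 0.10. The median over all tested probes was -0.0027. Without slide 6 the members' median was 0.024. Per probe and without adjustment, the 95% interval of the change lay within 2-fold in both directions for 3706 of the 3720 tested probes. Among the 300 members this held for 296. The median size of the change was 0.064, against a median standard error of 0.055.

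At an unadjusted p under 0.05 limma gave 54 members (18%), 41 of them higher in broilers and 13 lower. Over all tested probes the share was 6.45%, with 4.22% higher and 2.23% lower in broilers. Other tested probes at least as bright as the dimmest member gave 109 of 672 (16.2%), 67 higher and 42 lower. The 300 brightest DT40 probes gave 38 (12.7%), 15 higher and 23 lower. After loess within slides the members split into 33 higher and 18 lower, beside 6.42% of all tested probes, and after quantile normalization into 37 higher and 10 lower, beside 6.48%. With the slide as a random effect there were only 25 members, 21 higher and 4 lower, beside 193 of all 3720 tested probes. More members were thus higher than lower in each of these settings, by a balance that varied. Without slide 6 there were 63 (21%), 47 higher and 16 lower, beside 10.4% of all tested probes, 6.59% higher and 3.82% lower. The other tested probes at least as bright then gave 176 of 672 (26.2%), 107 higher and 69 lower. The 300 brightest DT40 probes gave 79 (26.3%), 36 higher and 43 lower, so the members' share was below that of both bright groups.

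The sign of the difference was the same on all 6 slides for 17 members (5.67%), 15 higher and 2 lower in broilers, and for 5.22% of all tested probes, 3.09% higher and 2.12% lower. By slide, the median broiler minus layer difference of the members was 0.012, 0.034, 0.049, -0.0004, 0.020 and 0.094 on slides 1 to 6, on average 0.035 ± 0.034 (SD, n = 6 slides). It was above 0 on 5 of 6 slides and highest on slide 6. Broilers were the higher for 51%, 62.7%, 58%, 50% and 57.7% of the members on slides 1 to 5 and for 70% on slide 6. Over all tested probes the share was 45.3%, 47.4%, 56.8%, 55.7% and 47.8% on slides 1 to 5. The members were thus close to the array on slide 3 and below it on slide 4. On slide 6 the other tested probes at least as bright had a like median, 0.091, with 66.2% higher in the broiler, while 49.4% of all tested probes were higher.

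The median change varied by rank. It was 0.091 for ranks 1 to 100, 0.020 for ranks 101 to 200 and 0.019 for ranks 201 to 300. Without slide 6 these medians were 0.083, 0.0019 and 0.012, and after loess within slides 0.068, 0.0090 and 0.0098. Members higher in broilers on all 6 slides numbered 5, 3 and 7 in these rank groups of 100, beside 3.09% of all tested probes. Of the 100 brightest, 18 were higher and 3 lower in broilers at an unadjusted p under 0.05 in limma. The middle ranks had 14 and 5, and the last had 9 and 5. Over all tested probes 4.22% were higher and 2.23% lower at this threshold. Other tested probes at least as bright as the dimmest member gave 67 higher and 42 lower of 672. That group reaches down to a mean of 0.33, whereas ranks 1 to 100 had means of 1.02 to 4.57. No group matched in level to these ranks is given. No test was made of the difference between these ranks.

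Pat_8H7 had the lowest p among the members higher in broilers on all 6 slides. It had 0.02 to 1.53 in broilers, with a median of 0.97, against -0.30 to 1.03 in layers, with a median of 0.94. The breeds overlapped, and the difference by slide was between 0.004 and 0.504. The change was 0.24 ± 0.04 (limma estimate ± SE), with an adjusted p of 0.19. It averaged 0.076 with broilers in the 647 dye and 0.40 with broilers in the 555 dye.

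Pat_13F12 had -0.41 to 1.29 in broilers, with a median of 0.76, against -0.82 to 0.84 in layers, with a median of 0.54. Within slides the broiler was higher by 0.106 to 0.483, although the ranges of the breeds overlapped. The change was 0.27 ± 0.05, with an adjusted p of 0.24 in limma.

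Among members lower in broilers on all 6 slides, Pat-21_h5 had the lowest p. It had -0.72 to 1.68 in broilers, with a median of -0.04, against -0.08 to 2.74 in layers, with a median of 0.65. Slide 2 held the highest value of both breeds, and slide 3 had nearly equal values of -0.10 in the broiler and -0.08 in the layer. The change was -0.69 ± 0.13, with an adjusted p of 0.28 in limma. Pat-16_f5 had -0.38 to 1.17 in broilers, with a median of 0.51, against -0.26 to 1.28 in layers, with a median of 0.62. Its change was -0.12 ± 0.03, with an adjusted p of 0.34 in limma.

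The 5 brightest members showed no called difference between breeds. The change was -0.11 ± 0.03 for Pat_6H4, 0.03 ± 0.14 for Pat-19_f8, -0.10 ± 0.08 for Pat_6H3, 0.27 ± 0.17 for Pat_2B7 and 0.35 ± 0.16 for Pat-19_e6. Without slide 3 the changes of Pat_2B7 and Pat-19_e6 were 0.090 and 0.18, and without slide 4 that of Pat_2B7 was 0.42. Slide 3 gave the widest difference of this pair, with Pat_2B7 at 4.84 in the broiler and 3.62 in the layer, and Pat-19_e6 at 4.25 in the broiler and 3.09 in the layer.

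The dye was compared in the same fit, as 647 over 555. Again 0 members passed an adjusted p under 0.05 (lowest 0.238), as for all tested probes (0.0%). With the slide as a random effect 1 member passed, Pat-19_f8, at an adjusted p of 0.0346 in limma, beside 0.0538% of all tested probes. At an unadjusted p under 0.05 there were 33 members (11%), 12 brighter in the 647 dye and 21 in the 555 dye, beside 5.78% of all tested probes. The 300 brightest DT40 probes gave 117 (39%). The dye difference was larger in size than the breed difference for 120 of the 300 members, against 1831 of the 3720 tested probes and 371 of the 672 other probes at least as bright.

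Pat-19_f8 had the largest dye difference among the 5 brightest, 0.83 ± 0.14 in log2, with an adjusted p of 0.24 in limma. Its broiler minus layer difference averaged 0.86 on the slides with broilers in the 647 dye and -0.80 on those with broilers in the 555 dye. Pat-18_a3 was brighter in the 647 dye by 0.43 ± 0.06 and Pat_8B11 by 0.19 ± 0.03. Pat_7H2 had a dye difference of -0.20 ± 0.03 and Pat_14d6 one of -0.28 ± 0.06, both brighter in the 555 dye. The adjusted p-values of these 4 in limma were 0.238 to 0.309.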

How the data were processed

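RNA of 12 marrow samples was measured on 6 slides, each with a broiler and a layer sample as its 2 channels. The authors deposited natural log values, 1 column per sample, while the sources used here do not give the image analysis, background treatment, filtering or normalization. The log base was read from the grid that whole scanner units leave among low values. Of 33349 triples of neighbouring grid points, 13684 (41.0%) lay within 0.5% of the natural-log constant, 69 of the log2 constant and 94 of the log10 constant. Slide 6 carried little of this, with 75 of 516 triples. The centring constant of each column is unknown, and column medians spanned 0.00192 log2. If background was not subtracted, changes of dim probes are understated.

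Values were divided by 0.6931 to give log2. The ratio of 647 over 555 was fitted with limma 3.58.1 in R 4.3.3 with a dye term and a breed term, on the 3720 filled chicken probes. Another 34 control-like probes (30 plant-named, 4 named for genomic DNA) were left out. Residual degrees of freedom were 4, with 1.75 added by the variance model. P-values were Benjamini-Hochberg adjusted with a threshold of 0.05. Tables were made with Python 3.11.15, and the fit was tested on simulated data. Slide partners come from the slide number in the titles. As deviations from breed and dye means, partners correlated at 0.736 to 0.884 over the members and at 0.807 to 0.871 over all tested probes. The small number of slides limits the precision.

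The members and lists were chosen with earlier results of these data known. The naming rule took the 5 brightest, the 3 on either side of the limit, the 4 with the highest and the 4 with the lowest SD, the 3 most correlated pairs, and the 2 with the lowest p in each direction for breed, if of 1 sign on all slides, and for dye. Other probes were named after their values were seen. No identifier could be matched to a gene, so the marker lists could not be looked up and gene-level tests were not run. Alternatives were loess within slides, quantile normalization, median centring, a random slide effect, no slide block, no dye term, a trended and robust variance, slide weights, bright probes only, a threshold of 0.1, other choices of members and leaving out each slide.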

Additional observations from a re-analysis of the deposited data

Results flagged for a closer look

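Values far from the rest of their group were sought in 41 groups of 6 samples or slides, and 16 were found by Dixon's criterion, of which 4 lay on slide 6. Chance gives about 5% of groups. That rate is no measure here, because many of these probes were named for a high spread: 10 of the 16 come from the 4 members with the highest SD.

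On slide 5 both breeds stood apart for 3 probes. Pat_3H9 had 5.08 in the broiler, against at most 0.46 in the other broilers, and 4.31 in the layer, against at most 0.65 in the other layers. Pat-17_c1 had 2.34 in the broiler, with the nearest at 0.04, and 3.58 in the layer, with the nearest at 0.10. Pat_12E3 had 3.0 in the broiler, with the nearest at 0.77, and 4.04 in the layer, with the nearest at 0.72. Their broiler minus layer differences on slide 5 also stood apart. These were 0.77 for Pat_3H9, with the nearest slide at 0.093, -1.24 for Pat-17_c1, with the nearest at -0.19, and -1.04 for Pat_12E3, with the nearest at -0.13.

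On slide 6 both samples were low, though the values that met the criterion were those of the layer. For Pat_6H3 the slide 6 layer had 3.11, with the nearest layer at 4.20, and for Pat_2B7 1.65, with the nearest at 3.38. For Pat_13F12 it had -0.82, with the nearest at 0.27. The slide 6 broiler had 2.96, 2.03 and -0.41 for these probes, each the lowest broiler value. The median of the 300 members in the slide 6 layer was 0.0041, with the nearest layer sample at 0.72. In the slide 6 broiler it was 0.17, with the nearest broiler sample at 0.70.

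On slide 2 the broiler had 1.68 for Pat-21_h5, with the nearest broiler at 0.14. On slide 4 the layer had 5.39 for Pat-19_f8, with the nearest layer at 4.40, and this layer carried the 647 dye. On slide 3 the broiler minus layer difference of Pat_2B7 was 1.22, with the nearest slide at 0.38.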

How the results depend on the processing

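No member passed the adjusted breed threshold under loess, quantile normalization, median centring, no block, a random slide effect, no dye term, a trended and robust variance, bright probes only, a threshold of 0.1 or with any slide left out, and the count was 0 in each. With slide weights, which gave slide 6 a weight of 0.0872, there was 1, Pat_12D6 (change 0.22 ± 0.02, adjusted p 0.0342 in limma), among 11 of all tested probes (0.296%). At an unadjusted p under 0.05 the counts varied with how the slide entered the fit. The paired fit gave 54 members and 240 of all 3720 tested probes. Without a replicate block there were 1 and 6. With the slide as a random effect, which also links slide partners, there were 25 and 193. From the paired fit to the random effect, the members' count thus fell by a larger share than that of all tested probes. Leaving out each slide gave 37 to 63 members and 161 to 387 of all tested probes. The count with a single sign on all slides was 24 to 43 when a slide was left out, and fewer slides make a single sign easier. With all 6 slides the share was 5.67% for members, 5.22% for all tested probes and 6.99% for other probes at least as bright. For the counts with a slide left out, no share over all tested probes is given, so they are not read as a trait of the members. With a slide left out the median change was 0.024 (without slide 6) to 0.053, and the median SD 0.260 (without slide 6) to 0.464. With 200 members the median change was 0.056 and with 400 it was 0.033. For the dye, a random slide effect gave 1 member past the adjusted threshold, Pat-19_f8 (0.83, adjusted p 0.0346 in limma). The change of Pat-19_f8 was -0.071 with slide weights and -0.12 to 0.16 with a slide left out, below 0 without slide 1 (-0.020) and without slide 3. That of Pat_3H9 ran from -0.052 (without slide 5) to 0.15, and that of Pat_12E3 from -0.27 to 0.010 (without slide 5). The causes of these shifts were not tested.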
